A study of Bos taurus with 8 samples.

Results

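The proteasome genes examined here are the 47 genes on the array whose symbol begins with PSMA to PSMG and a digit, out of 15227 named genes. The rule reads only the symbol, and the genes are carried by 79 of the 43794 array probes. Each gene is given by its probe of highest mean signal over all pools, and other probes only where they are named. Of these genes, 19 belong to the core particle (PSMA and PSMB), 22 to the regulatory particle and its activators (PSMC, PSMD and PSME), and 5 code for an inhibitor and assembly chaperones (PSMF1 and PSMG1 to PSMG4). PSMC3IP, a recombination factor, matched by its letters alone, was kept out of those groups and is not a subunit. All 47 symbols were current in RefSeq. After the filter on dim probes 46 genes and 76 probes were tested, with PSMB8 the gene left out.

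The arrays compared bovine blastocysts made in vitro from the oocytes of slaughtered dairy cows. The glucose embryos were cultured with 5 mM glucose from day 0 to day 3 and the control embryos with 0.2 mM, both then went into ordinary culture medium, and both were collected 180 h after fertilization. Each group held 4 pools of 10 whole blastocysts, so inner cell mass and trophectoderm were measured together, and every array set a glucose pool in one dye against a control pool in the opposite dye. The 8 arrays fell into 2 array sets (047 and 056) that held array numbers 1 to 4 once each with opposite dyes. Arrays of one number were read as a dye swap of the same pools and averaged, which left 4 replicates, each a glucose pool against a control pool. Nothing in the labels says whether the pools came from separate fertilizations, so the p-values measure only the spread between these pools.

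The proteasome breaks down proteins that carry ubiquitin. Its core is a barrel of stacked rings, with outer rings of alpha subunits that gate the entrance and inner rings of beta subunits that hold the cutting sites. A regulatory particle caps the barrel, where ATPases unfold the substrate and non-ATPase subunits bind ubiquitin, remove it and hold the assembly together. In mammalian cells the transcription factor NFE2L1 can raise the subunit genes together when the proteasome is impaired, and in early embryos the proteasome clears proteins that the egg had stored.

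No proteasome gene passed the test of glucose against control embryos over the 4 replicates. The limma fit gave no adjusted p under 0.05 for any of the 46 genes, or for any of the 32935 probes tested (0%). The adjusted p of the 46 genes lay between 0.977 and 0.998. At an unadjusted p under 0.05 it again gave 0 of 46 genes, where 2.7% of the 12587 named genes tested passed. At the brightest probe, no proteasome gene was brighter after glucose in all 4 replicates, where 5.18% of named genes were, and none was dimmer in all 4, where 4.43% were. Of all 76 member probes 3 were brighter in 4 of 4 replicates, 1 each of PSMA2, PSMB1 and PSMB10, where 5.19% of all probes tested were. The median log2 ratio of glucose over control was 0.07 over the 46 genes and 0.006 over all named genes, and 31 of the 46 mean ratios (67.4%) lay above 0 against 52.2% of named genes.

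The widest departure from equal signal was in replicate 4. The members' median ratio was 0.07 in replicate 1, -0.01 in replicate 2 and -0.09 in replicate 3, but 0.36 in replicate 4, where the median over all named genes was -0.002. In replicate 4, 31 of 46 ratios lay above 0, where 49.8% of named genes did, or 36 with arrays centred on their median in place of loess, where 52.9% did. The count was higher in replicate 1, at 33 (71.7%, against 50.2% of named genes), and was 22 and 18 in replicates 2 and 3. Replicate 4 thus stood apart in the size of its ratios and not in this count. The spread of the ratios over the 46 genes widened in replicate 4, with an SD of 0.115, 0.226, 0.268 and 0.744 in replicates 1 to 4, against 0.233, 0.218, 0.288 and 0.487 over all named genes. These shares and spreads were not matched for signal. Named genes averaged 8.77 to 8.82 in log2 signal over the pools, against 10.78 to 11.28 for the members. Without replicate 4 the median of the members was -0.01 and 20 of 46 mean ratios lay above 0. The positive median over 4 replicates therefore rested on this one pair of pools.

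**Figure D1:**
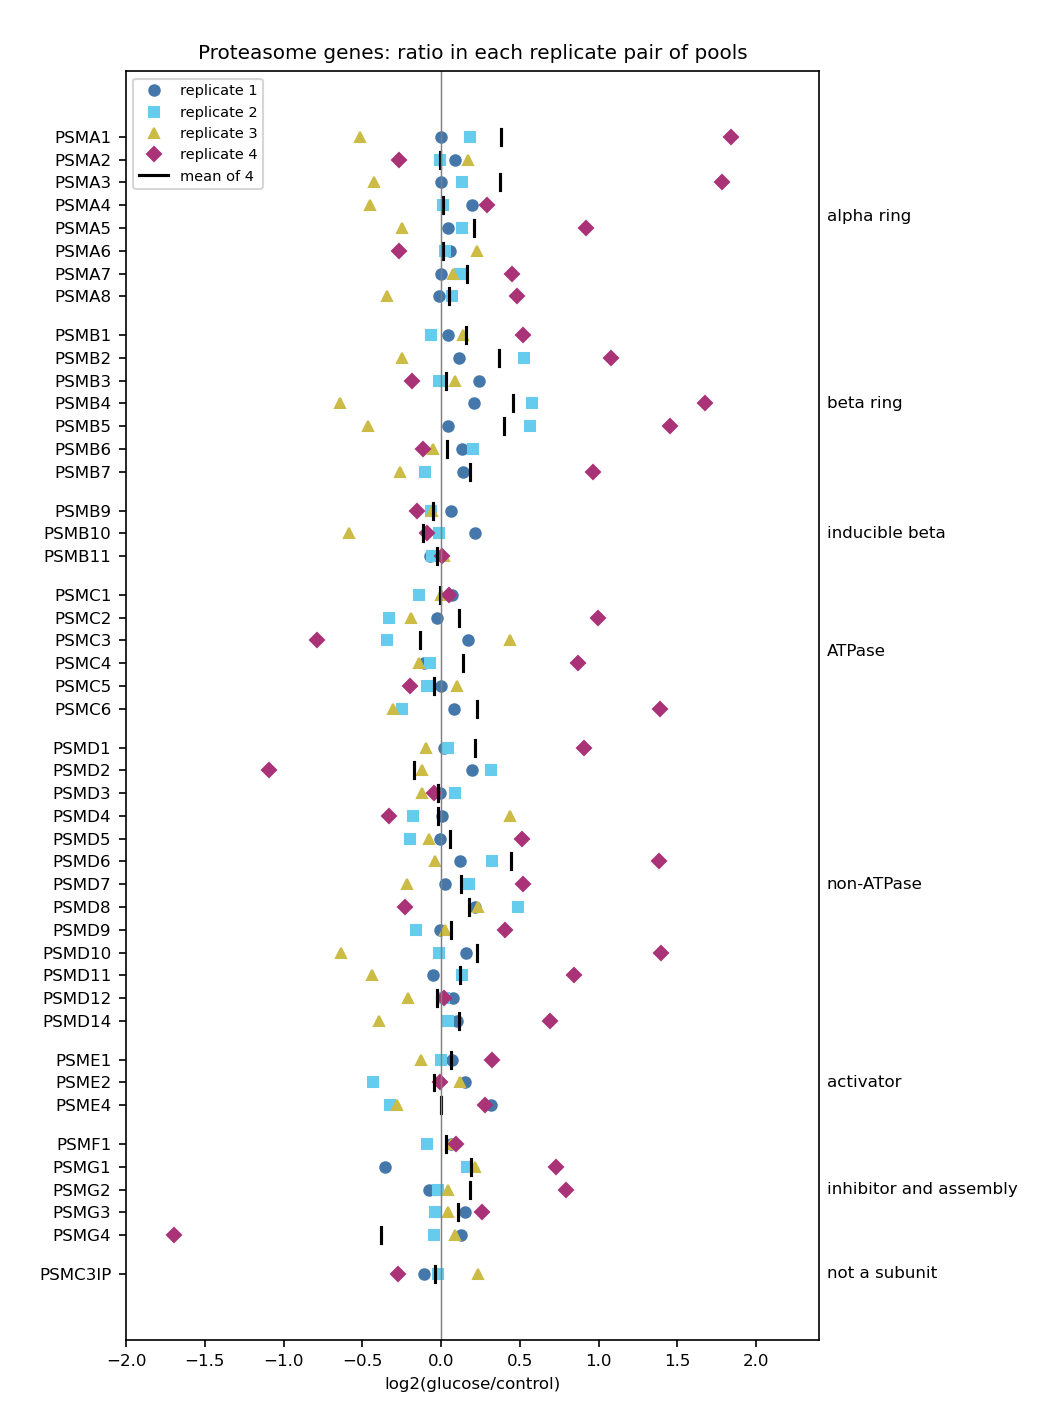
Log2 ratio of glucose over control (horizontal axis) of the 46 tested genes (vertical axis, by role), with a symbol for each replicate and a bar for the mean of 4. Replicate 4 (diamonds) lies far to the right for many genes of both particles and to the left for PSMG4, PSMD2 and PSMC3, while replicates 1 to 3 stay nearer to 0.

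In replicate 4, 7 of the 46 genes (15.2%) were at least 2-fold brighter in the glucose pool on both arrays of the pair, where 2.98% of named genes were. These were the core genes PSMA1, PSMA3, PSMB4 and PSMB5 and the regulatory genes PSMC6, PSMD6 and PSMD10. In the other direction, 2 genes (4.35%) were at least 2-fold dimmer on both arrays, PSMD2 and PSMG4, where 1.08% of named genes were. With median centring these counts were 12 brighter and 1 dimmer, beside 6.5% and 0.278% of named genes. The dimmer count was 1 with the authors' deposited values and 0 with each gene averaged over its probes, where 0.588% of named genes were dimmer. The replicate was singled out after its values were seen, as were PSMA1, PSMA3, PSMD10 and PSMD2 and other genes below whose values are given beyond their mean, so these counts describe 1 pair of pools and carry no test.

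The alpha ring held 8 tested genes, 7 of them with a mean ratio above 0, and a median of 0.11 (0.02, 0.09, -0.30 and 0.47 in replicates 1 to 4). PSMA7, whose p of 0.135 was the lowest of all members before adjustment (adjusted p = 0.977, limma), had ratios of -0.001, 0.12, 0.08 and 0.45 in replicates 1 to 4, a mean of 0.16 ± 0.20 (SD, n = 4). PSMA5 had 0.04, 0.14, -0.25 and 0.92, a mean of 0.21 ± 0.50. In both genes replicate 4 was the highest value.

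PSMA1 and PSMA3, each a ring subunit as well, had the highest ratios of any members in replicate 4, at 1.84 (3.59-fold) and 1.79 (3.45-fold). The arrays of that pair gave PSMA1 1.83 with glucose in Cy3 and 1.86 with glucose in Cy5. In the other replicates its ratios were 0.002, 0.19 and -0.51. The gap of replicate 4 was thus seen in both dyes, and replicate 3 pointed the other way. PSMA4 and the testis form PSMA8 had means of 0.01 ± 0.33 and 0.05 ± 0.34.

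The pool signals also differed in level between array numbers. For PSMA1 the mean of the glucose and control pools ranged over 0.95 between numbers, so which side of the ratio had moved was not settled. On the normalized log2 scale the glucose pools of PSMA1 read 12.20, 12.37, 11.16 and 12.24 and the control pools 12.19, 12.18, 11.67 and 10.40. Glucose pool 4 was level with pools 1 and 2, control pool 4 was the lowest of all 8, and the groups overlapped. PSMA3 read 12.75, 13.00, 12.05 and 12.81 in glucose pools and 12.74, 12.86, 12.47 and 11.02 in control pools. Its order was the same, with control pool 4 lowest and glucose pool 3 next.

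The constitutive beta ring, PSMB1 to PSMB7, had the highest median of the role groups (0.19), with all 7 mean ratios above 0 and medians of 0.14, 0.20, -0.25 and 0.97 in replicates 1 to 4. PSMB4, a structural beta subunit, had the highest mean ratio of the members, 0.45 ± 0.96, from 0.21, 0.58, -0.64 and 1.68. Its glucose pools read 13.37, 13.58, 12.49 and 13.51 and its control pools 13.16, 13.00, 13.13 and 11.83. Control pool 4 stood below the other 7 pools, glucose pool 3 was next, and the groups overlapped.

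PSMB5 carries the chymotrypsin-like cutting site. Its ratios were 0.04, 0.56, -0.46 and 1.45, a mean of 0.40 ± 0.82, and its control pools read 12.20, 12.25, 12.45 and 11.32 beside glucose pools of 12.24, 12.82, 11.99 and 12.77. PSMB2, a subunit without a cutting site, had 0.11, 0.53, -0.25 and 1.08, a mean of 0.37 ± 0.57. Its control pools read 13.33, 13.26, 13.23 and 12.34 against 13.45, 13.79, 12.98 and 13.42 with glucose. In each of these beta genes 3 of 4 ratios were above 0, replicate 3 was below 0, and control pool 4 was the dimmest pool. PSMB1, also structural, was less spread, with 0.05, -0.06, 0.14 and 0.52, a mean of 0.16 ± 0.25, and PSMB3 had a mean of 0.03 ± 0.18.

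The other cutting sites of the constitutive core belong to PSMB6 (caspase-like) and PSMB7 (trypsin-like). PSMB6 had a mean ratio of 0.04 ± 0.15 and a ratio of -0.12 in replicate 4, whose sign turned to 0.13 when arrays were centred on their median in place of loess. PSMB7 had a mean of 0.19 ± 0.54 and 0.97 in replicate 4. The genes of the 3 cutting sites were thus spread from -0.12 to 1.45 within replicate 4.

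The inducible beta subunits take the place of the constitutive cutting subunits in the immunoproteasome, which interferon brings about: PSMB8 for PSMB5, PSMB9 for PSMB6 and PSMB10 for PSMB7. PSMB8 was above the negative controls in 2 of 8 glucose channels and 2 of 8 control channels. Its ratios of 0.04, 0.12, 0.05 and -0.05 therefore lay near background and were not tested. It passed the filter only when the brightest negative control spot was set aside, a choice made after seeing the data. PSMB9 had 0.07, -0.07, -0.06 and -0.15, a mean of -0.05 ± 0.09, and PSMB11, the thymus form, a mean of -0.03 ± 0.05. Both probes were dim, and the offset added in background correction pulls ratios of dim probes towards 0.

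PSMB10 had ratios of 0.22, -0.01, -0.58 and -0.09, a mean of -0.12 ± 0.34. The arrays of replicate 3 disagreed, at -1.52 with glucose in Cy5 and 0.35 with glucose in Cy3. Its second probe gave 0.49, 0.32, 0.26 and 0.04, above 0 in 4 of 4 replicates with an unadjusted p of 0.0227 and an adjusted p of 0.977 in the limma fit. The direction of PSMB10 thus differed between its probes.

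Set against the constitutive partner, PSMB9 minus PSMB6 was -0.07, -0.26, -0.004 and -0.04 in replicates 1 to 4, a mean of -0.09 ± 0.12. PSMB10 minus PSMB7 was 0.08, 0.09, -0.32 and -1.05, a mean of -0.30 ± 0.54. The brightest probe of PSMB10 was dim as well, at 7.31 to 7.56 in the pools outside number 3, against 11.88 to 12.88 for PSMB7. In replicate 4 PSMB7 read 0.97 and PSMB10 -0.09, so that difference came mostly from PSMB7. At the brightest probes the first of these differences was below 0 in every replicate and the second changed sign. The second probe of PSMB6 gave 0.111, -0.055, -0.164 and 0.058, where PSMB9 gave 0.066, -0.065, -0.057 and -0.154. Against that probe PSMB9 was the higher in replicate 3 alone. With each gene averaged over its probes the mean of both differences was -0.05 in place of -0.20.

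The ATPases of the regulatory particle, PSMC1 to PSMC6, had a median ratio of 0.05, with 3 of 6 means above 0. PSMC6 had 0.08, -0.25, -0.30 and 1.39, a mean of 0.23 ± 0.79. PSMC4 had -0.11, -0.07, -0.14 and 0.87, a mean of 0.14 ± 0.49. PSMC6 was dimmer after glucose in 2 replicates and PSMC4 in 3, and without replicate 4 their means were -0.16 and -0.11. PSMC2 reached 1.00 in replicate 4, while PSMC3 stood at -0.79 and PSMC5 at -0.20 (0.04 with median centring). The 6 ATPases are built into one ring, and in replicate 4 their ratios at the brightest probes spanned from -0.79 to 1.39. Second probes read 0.06 for PSMC3 and 0.45 for PSMC6, so both ends of that span rested on the choice of probe.

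PSMC1 differed more between array numbers than between glucose and control. Its glucose pools read 9.32, 8.91, 7.99 and 7.80 and its control pools 9.24, 9.05, 7.99 and 7.74. The 4 pair means ranged over 1.51, against a largest difference of 0.14 within a pair. PSMD4, a ubiquitin receptor, ranged over 1.48 against 0.44, and the lid subunit PSMD3 over 0.98 against 0.12. Such a wider range between numbers than within them was found in 20 of 46 members (43.5%) and in 50.1% of named genes, so it was not particular to the members.

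The non-ATPase group had a median ratio of 0.11 and 9 of 13 means above 0. PSMD6, a lid subunit, had 0.12, 0.32, -0.04 and 1.38, a mean of 0.45 ± 0.64 with an unadjusted p of 0.139 and an adjusted p of 0.977 in the limma fit. Its glucose pools read 11.65, 11.82, 11.15 and 11.77 and its control pools 11.54, 11.50, 11.19 and 10.39. Glucose pool 4 was again among the brighter pools, control pool 4 was the dimmest, and the groups overlapped. PSMD8, another lid subunit, went the other way in replicate 4, with 0.22, 0.49, 0.24 and -0.23 (0.07 with median centring) and a mean of 0.18 ± 0.30. It was the only member at an unadjusted p under 0.05 once replicate 4 was left out, a setting in which 6.96% of named genes passed.

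PSMD2, a large scaffold subunit of the base, read -1.09 in replicate 4, while its partner PSMD1 read 0.91. The deubiquitinating subunit PSMD14 had a mean of 0.11 ± 0.44, and the lid subunits PSMD7, PSMD11 and PSMD12 had means of 0.13 ± 0.31, 0.12 ± 0.54 and -0.02 ± 0.13. PSMD5, PSMD9 and PSMD10 carry PSMD symbols but act as chaperones that build the base, and they read 0.51, 0.40 and 1.40 in replicate 4. Chaperones and built-in subunits were thus both found on the bright side.

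Of the activators, PSME1 and PSME2 form the interferon-inducible ring that opens the core without ubiquitin. PSME1 had 0.07, 0.001, -0.13 and 0.32, a mean of 0.07 ± 0.19. PSME2 had 0.15, -0.43, 0.12 and -0.01 (0.31 in replicate 4 with median centring), a mean of -0.04 ± 0.27. PSME4, an activator of another family, had a mean of -0.002 ± 0.35. The means of the 3 activators thus lay within 1 SD of 0, as those of every other tested member did. The share of named genes for which this held was not counted.

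The inhibitor and assembly genes had a median of 0.11 and 4 of 5 means above 0. PSMG3 had 0.16, -0.04, 0.05 and 0.26, a mean of 0.11 ± 0.13, and PSMG2 had -0.08, -0.02, 0.04 and 0.79, a mean of 0.19 ± 0.41. PSMG4 had the lowest mean of all members, -0.38 ± 0.88, from 0.13, -0.04, 0.09 and -1.70. The PSMG products pair up as PSMG1 with PSMG2 and PSMG3 with PSMG4 to build the alpha ring, and in replicate 4 PSMG3 and PSMG4 stood on opposite sides. PSMG1 had a mean of 0.19 ± 0.44 and PSMF1, an inhibitor of the core in the test tube, 0.03 ± 0.09.

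For PSMG4 and PSMD2 both pools of number 4 stood at the ends of the range. The PSMG4 glucose pools read 10.46, 10.42, 10.50 and 9.88 and its control pools 10.33, 10.47, 10.41 and 11.58. Control pool 4 was the brightest of the 8 and glucose pool 4 the dimmest, with the other 6 between 10.33 and 10.50. PSMD2 read 14.20, 14.38, 14.02 and 13.53 in glucose pools and 14.00, 14.07, 14.14 and 14.61 in control pools, with the same pools lowest and highest.

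**Figure D2:**
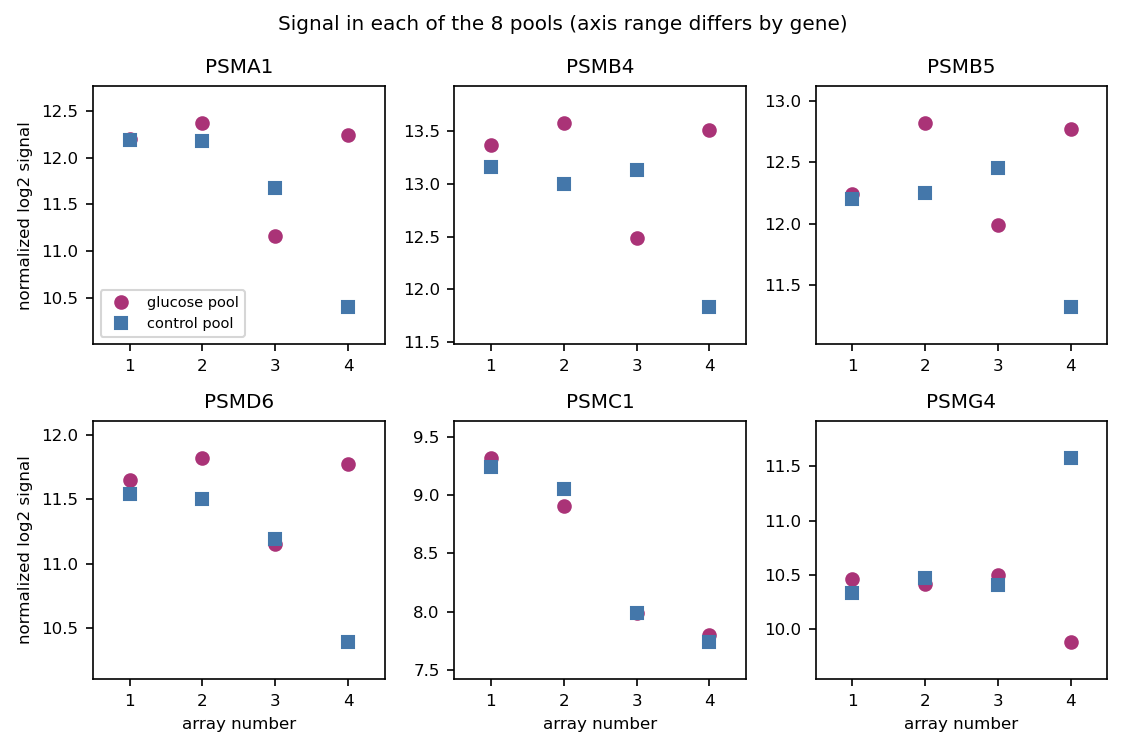
Normalized log2 signal (vertical axis) of the glucose pool (circles) and control pool (squares) of each array number (horizontal axis) for 6 genes. Control pool 4 is the lowest of 8 for PSMA1, PSMB4, PSMB5 and PSMD6 and the highest for PSMG4, and for PSMC1 both pools of numbers 3 and 4 (7.74 to 7.99) lie below those of numbers 1 and 2 (8.91 to 9.32).

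Over all members, control pool 4 held the lowest of the 8 signals in 25 of 46 genes (54.3%), where it did so in 26% of named genes. These were 10 core and 11 regulatory genes, with PSMF1, PSMG1, PSMG2 and PSMG3. Control pool 1 was the lowest in 7 genes (15.2%, against 9.84% of named genes) and glucose pool 4 in 6 (13%, against 13.4%). Glucose pool 3 and control pool 2 were the lowest in none, against 10.4% and 12% of named genes. The mean signal over the 46 genes was 10.78 in control pool 4 against 11.09 to 11.25 in the other control pools and 10.98 to 11.28 in glucose pools. Over all named genes it was 8.77 to 8.82 in the pools, so the shares above were not matched for signal. In whole pools of embryos, fewer cells of a type and less of an RNA in each cell cannot be told apart.

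The core did not stay on one side of the regulatory genes. Core medians were 0.06, 0.05, -0.25 and 0.47 in replicates 1 to 4, and regulatory medians 0.07, -0.04, -0.12 and 0.36. The core median minus the regulatory median was -0.01, 0.08, -0.13 and 0.11, a mean of 0.01 ± 0.11 (SD, n = 4). It was above 0 in 2 replicates and below in the other 2, and its sign also turned with the scaling, to -0.006 with no background correction and -0.01 with median centring.

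**Figure D3:**
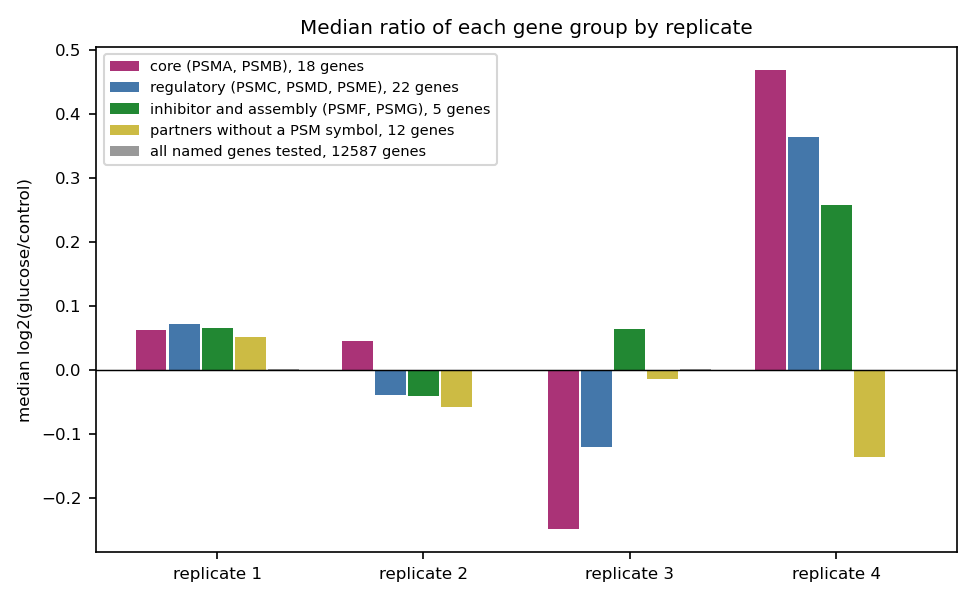
Median log2 ratio of glucose over control (vertical axis) in replicates 1 to 4 (horizontal axis) for core, regulatory, and inhibitor and assembly genes, for proteasome partners without a PSM symbol and for all named genes. Core and regulatory medians are the highest in replicate 4 (0.47 and 0.36), the partners are below 0 there (-0.14), and all named genes stay near 0.

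Replicates 3 and 4 ran against each other. Across the 45 proteasome genes without PSMC3IP the Pearson correlation of their ratios was -0.617, against -0.281 across all named genes, where genes are not independent and share the same pools. This was the replicate pair furthest from 0 across the 45 genes, and the other pairs gave -0.329 to 0.297. With PSMC3IP, 33 of 46 genes (71.7%) had opposite signs in replicates 3 and 4, as 59.9% of named genes did. Arrays of one number differed in how far they agreed on the members: with opposite dyes, 19, 27, 29 and 34 of the 45 genes had the same sign on both arrays in replicates 1 to 4. Across the same genes the correlation between the arrays was -0.329, 0.0479, 0.158 and 0.882, and it was 0.509, 0.835, 0.763 and 0.982 once each probe's mean dye difference over the 8 arrays was taken out. Over all probes tested the correlation was 0.733, 0.773, 0.846 and 0.912 after that step. Before averaging, the dye difference was thus large beside the ratios of the members in replicates 1 to 3. The same-sign counts and the correlations before that step were not computed over all named genes, so neither can be called particular to the members.

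Genes with several probes gave a check on the array within one gene. For 19 members more than 1 probe was tested, and in replicate 4 the probes of 10 shared a sign, as those of 9 did in each other replicate. The 3 probes of PSMB4 gave 1.58 to 1.73 in replicate 4, those of PSMB7 0.59 to 0.97 and the 4 of PSMG1 0.36 to 0.85. In these genes the brighter glucose signal was seen at every probe.

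Other genes depended on the probe. The brightest probe of PSMA2 gave -0.27 in replicate 4 and its 5 other probes 0.54 to 0.88. PSMA6 gave -0.26 and 0.69, and PSMD2 gave -1.09 at its brightest probe and -0.19 and 1.07 at the others. The second probe of PSMG4 gave -0.19 against -1.70, and that of PSMC4 -0.13 against 0.87. At the brightest probe, PSMA2, PSMA6 and PSMC5 read 14.61, 14.79 and 14.79 in control pool 4. No brightest probe of a tested member reached the scanner's ceiling in its median spot intensity. The other member probes, and the mean intensities that the ratios came from, were not checked against that ceiling. Over all 76 member probes, 2 (2.63%) had an unadjusted p under 0.05, 1 of PSMA2 and 1 of PSMB10, where 2.37% of all probes did.

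**Figure D4:**
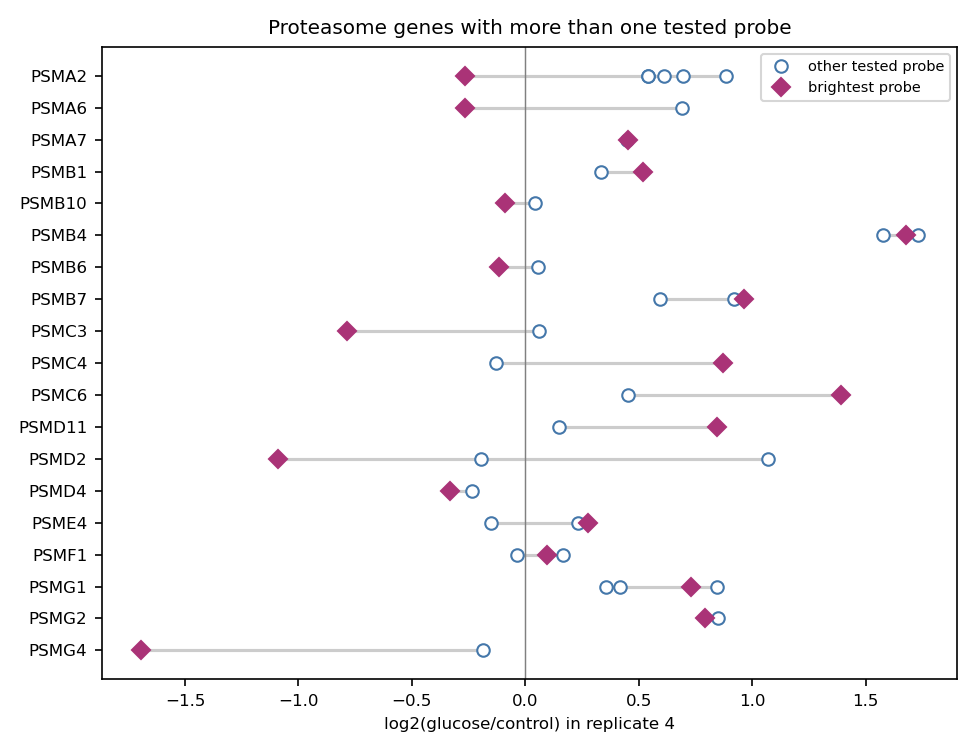
Log2 ratio of glucose over control in replicate 4 (horizontal axis) for each tested probe of the 19 genes with more than 1 (vertical axis), with the brightest probe as a filled diamond and the others as open circles. The probes of PSMB4 lie together between 1.58 and 1.73, while those of PSMD2 run from -1.09 to 1.07 and PSMA2 has its brightest probe alone below 0.

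Genes that work with the proteasome but carry other symbols had a median of -0.14 in replicate 4. Of 17 listed partner symbols 12 were tested, 6 with a mean above 0 and 6 below, and the median of the means was 0.006. None had a p under 0.05, adjusted or not. The lowest p belonged to the shuttle factors UBQLN4 (-0.06, -0.07, -0.06 and -0.27, a mean of -0.11 ± 0.10) and UBQLN2 (0.34, -0.18, 0.15 and 0.39, a mean of 0.17 ± 0.26). In replicate 4 the ubiquitin receptor ADRM1 read -0.91 and the deubiquitinase UCHL5 that it recruits -0.68. UBE3C read -0.535 there, while PAAF1 read 0.80, SHFM1 0.58 and USP14 0.24. The shuttle factor RAD23B read 1.41, and 5 of the 12 partners lay above 0 in that replicate, so the partners were spread on both sides.

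The regulators that raise subunit genes when the proteasome is impaired, NFE2L1 with its processing enzymes and related factors, were all tested. Their median was -0.07, 5 of the 6 means were below 0 and 1 above, and none had a p under 0.05, adjusted or not. MAFG, a partner of the NFE2 factors on DNA, had 0.18, -0.23, -0.03 and -0.63, a mean of -0.18 ± 0.34. KEAP1, which holds NFE2L2 in check, had 0.02, -0.16, 0.04 and -0.21, a mean of -0.08 ± 0.13. In replicate 4 NFE2L1 read -0.50, NFE2L2 0.24, and the processing enzymes DDI2 -0.25 and NGLY1 1.27, so the regulators were on both sides of 0 there.

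Of 9 genes for ubiquitin and its activation 5 were tested, all with a mean below 0 and a median of -0.14, and none at a p under 0.05 adjusted or not. The conjugating enzyme UBE2L3 had 0.04, 0.02, -0.22 and -0.77, a mean of -0.23 ± 0.38. The activating enzyme UBA6 had 0.15, -0.45, 0.08 and -0.55, a mean of -0.19 ± 0.36. Both spreads were wider than the means.

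Of 7 genes for interferon-driven antigen processing, which acts on the peptides that the proteasome releases, 6 were tested, with a median of 0.17 and 5 means above 0. The peptide transporter TAP2 had 0.31, 0.16, 0.34 and 0.31, a mean of 0.28 ± 0.08, and the peptide-trimming enzyme ERAP1 0.37, 0.17, 0.28 and 0.22, a mean of 0.26 ± 0.08. These 2 had an unadjusted p of 0.00444 and 0.00585 and an adjusted p of 0.977 in the limma fit, and were brighter in 4 of 4 replicates. Over all named genes 2.7% had an unadjusted p under 0.05 and 5.18% were brighter in 4 of 4. Of the inducible proteasome subunits, which serve the same pathway, PSMB9 had a mean of -0.05, and PSMB10 one of -0.12 at its brightest probe and 0.28 at its second.

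All 10 listed blastocyst markers were tested, and 7 of them, among them POU5F1, NANOG and IFNT, were above the negative controls in every channel. CDX2 was near background, above them in 4 of 8 glucose and 6 of 8 control channels, and SOX2 (6 and 7) and GATA3 (7 and 7) also missed some channels. The glucose channel of replicate 1 in Cy3 had a negative control SD of 569, against 5.58 to 16.6 in the other channels. Its cutoff was thus higher, and a miss there need not mean a signal near background. The markers' median ratio was 0.30 in replicate 4 and -0.14 in replicate 3. All 8 mesenchymal markers were tested, with a mean signal of 9.72, 7.88, 10.28 and 8.32 in glucose pools and 8.62, 7.92, 8.53 and 8.28 in control pools, so their mean stood out in glucose pools 1 and 3. In number 4 their mean was close in both pools, but single markers differed in both directions. LUM read 9.93 with glucose and 8.40 in the control, while the ratios of COL1A2, THY1 and COL1A1 were -0.42, -0.38 and -0.32. Of the 8 ratios 2 lay above 0 in replicate 4, with a median of -0.115. The 12 cumulus and granulosa markers averaged 7.97 to 8.23 in glucose and 7.94 to 8.20 in control pools, and the 4 blood markers had a median ratio of 0.001. The part of these cells in the members' ratios was not tested. Over all probes the ratios of replicate 4 had an SD of 0.431, against 0.195 to 0.237 in replicates 1 to 3. Between 66.2% and 82.2% of probes per array were above the negative controls.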

How the data were processed

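Total RNA from each pool was amplified in 2 rounds, given a Cy3 or Cy5 label by a chemical reaction and run on slides from Agilent, per the labels' protocols. The deposited scanner tables hold unnormalized spot intensity and local background in both channels, per the file headers. Of tools, limma is named in the submitters' processing notes. In the deposited series table stands 1 score per probe and array whose unit the authors do not state. It was read as log2 glucose signal over log2 control signal, an inference: log2 ratios rebuilt from these scores matched those of the scanner files with correlations of 0.977 to 0.996 and slopes of 0.918 to 1.01 over 5734 brighter probes, glucose over control on every array. Its column medians were 0.9985, 0.9992, 0.9996, 0.9999, 0.9993, 0.9981, 0.999 and 1. Its normalization is unknown, and it served as an alternative.

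Mean intensities were corrected with normexp (offset 50) and normalized by loess within each array, with control spots at weight 0 (limma 3.58.1, R 4.3.3). Probes were tested if above the mean plus 2 SD of 153 negative control spots in a channel on at least 4 of 8 arrays. The limma fit was two-sided, of 4 replicate ratios against 0, and p-values were adjusted by Benjamini-Hochberg over 32935 probes. It was checked on simulated data. Pool signals had Aquantile normalization in addition. The number of arrays limits the precision.

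Array numbers in the titles pair the arrays, which is inferred: arrays of the same number correlated at 0.733, 0.773, 0.846 and 0.912 over all probes tested once each probe's mean dye difference was taken out, and with arrays of other numbers at 0.214 or less. Probe symbols came from the platform annotation, where 21790 probes have 1 symbol and 22004 none, and the brightest probe stood for a gene. All 4 replicate values are given for the 2 genes of lowest p in each role group, PSMB5, PSMB8 to PSMB10, PSME1, PSME2 and the genes of highest and lowest mean ratio, and the 2 of lowest p in each pathway list. The members and lists were chosen with earlier results of these data known.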

Additional observations from a re-analysis of the deposited data

Results flagged for a closer look

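Among 61 groups of 4 values (ratios and pool signals of the genes given in full), 8 held a value whose gap to the nearest of the others, divided by the whole range, was above Dixon's critical value, and 7 of those values belonged to array number 4. Chance gives such a gap in about 1 in 20 groups, but the groups share pools and the genes were partly chosen by their values. PSMB4 and PSMG4 were included for the highest and lowest mean ratio, which replicate 4 sets, and they account for 4 of the 7.

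Control pool 4 stood apart for PSMB2 at 12.34, where the other control pools read 13.23 to 13.33, and for PSMB4 at 11.83, where they read 13.00 to 13.16. Replicate 4 stood apart for the ratio of PSMC4 at 0.87, with the others between -0.14 and -0.07, and of PSMG2 at 0.79, with the others between -0.08 and 0.04. PSMG4 stood apart in number 4 in 3 measures, with a ratio of -1.70 (others -0.04 to 0.13), a glucose pool at 9.88 (others 10.42 to 10.50) and a control pool at 11.58 (others 10.33 to 10.47). The exception to number 4 was PSMB10, whose control pool 3 read 8.93 where the others read 7.32 to 7.43, on arrays that disagreed in the sign of the ratio.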

How the results depend on the processing

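No proteasome gene passed the adjusted threshold under any of the 17 alternatives. At an unadjusted p under 0.05, array weights gave 1 gene (PSMD8, with 7.75% of named genes), and leaving out a replicate gave 0 to 1. Of the 46 mean ratios, 20 to 34 lay above 0 when a replicate was left out. Median centring in place of loess raised the members at least 2-fold brighter in replicate 4 from 7 to 12, and the share of named genes from 2.98% to 6.5%. Of 289 alternative values of the genes given in full, 14 changed sign. PSMB10 turned to 0.081 over the mean of its probes and 0.108 in array set 047 alone, and with array weights, where replicate 4 had a weight of 0.303, PSMC4 turned to -0.05, PSME2 to 0.022 and PSMB9 and PSMB10 to 0.005. Leaving out a replicate gave -0.024 to 0.365 for PSMA5, -0.228 to 0.039 for PSMB10, -0.16 to 0.41 for PSMC6, -0.11 to 0.23 for PSMC4, -0.019 to 0.132 for PSME1, -0.106 to 0.088 for PSME2, -0.016 to 0.273 for PSMG2 and -0.55 to 0.059 for PSMG4. The cause of these turns was not tested. With the replicate number as a block (replicate block, 8 arrays, consensus correlation 0.702), 31 mean ratios lay above 0 and no call changed. Control pool 4 was the lowest in 24 to 27 members under other scalings between arrays or 1 array set, chosen after seeing the data, and in 23% to 40.1% of named genes. Probes near background, such as those of PSMB8, PSMB9 and PSMD3, limit what their ratios can show.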
